A study of Mus musculus with 9 samples.

Results

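In brain RNA of 9 mice, 10 genes that make, package, take up, or break down the monoamine transmitters were examined: Th, Slc6a3, Ddc, Slc18a2, Tph2, Slc6a4, Dbh, Slc6a2, Hdc, and Maoa. They were chosen by name for their function, with earlier results of these data known, and are 10 of the 38621 genes with deposited values. Levels are given in RPKM, that is, reads scaled by exon length and by the depth of the library. The 8 genes that reached 0.1 RPKM in 3 or more of the 9 mice were tested. Slc6a4 and Slc6a2 lay below this level and are described by their reads only.

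The study compared male C57BL/6 mice of a sham, an ICH, and a feb group, with 3 mice in each. ICH (intracerebral hemorrhage) was modeled by injecting 30 μl of the animal's own whole blood into the brain, and the feb mice had first been gavaged for 5 days with febuxostat, a xanthine oxidase inhibitor (50 mg/kg, daily). The sham mice received saline by the methods but are labelled untreated. The age of the mice, the dissected region, and the time after injection are not given in the sources used here for these samples. The mice are named below by group and replicate number, for example sham 1.

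The recovered libraries held between 23065757 and 29538009 reads on genes. Marker genes of striatum and cortex were detected in all 9 mice, which goes with the label brain, but markers of other regions differed between mice. Sham 1 stood apart. The RPKM of 9 hindbrain markers summed to 23.3 in sham 1 and to between 0.0513 and 0.562 in the other 8 mice, and that of 6 pituitary markers, mostly Gh, to 135 in sham 1 and to at most 12.7 elsewhere. The sum of 10 hypothalamic markers also varied within groups, from 24.1 to 120 among the sham, 13.2 to 182 among the ICH, and 18.8 to 228 among the feb mice. Values of the 10 genes that rest on sham 1 are therefore given with and without it, and calls of other genes that were lost without it are named.

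As background, dopamine, noradrenaline, serotonin, and histamine are each made by small groups of neurons, in the midbrain and hypothalamus, the locus coeruleus, the raphe nuclei, and the tuberomammillary nucleus, respectively. The axons of these neurons reach most of the brain, while their mRNA lies mainly in the cell bodies. Th, the rate-limiting enzyme of catecholamine synthesis, and Tph2, that of serotonin synthesis in neurons, act before Ddc, which forms dopamine and serotonin from their precursors. Dbh turns dopamine into noradrenaline, and Hdc makes histamine. Slc18a2 loads monoamines into vesicles, Slc6a3, Slc6a4, and Slc6a2 carry dopamine, serotonin, and noradrenaline, respectively, back into the cell, and Maoa oxidizes monoamines.

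Promoters, from 250 bases before to 50 bases after the RefSeq start of the gene (GRCm38.p6), were at hand for 9 of the 10 genes. These were 10 promoters in all, with none for Slc6a2. They were searched on both strands for the cyclic AMP response element, TGACGTCA, and for the NGFI-B response element, AAAGGTCA, which is bound by the Nr4a family that includes Nr4a2. The first was found in promoters of 2 of the 9 genes, Th and Slc18a2, and the second in 1 of the 2 promoters of Ddc. Among all 32851 promoters of the same length, 1.79% held the first and 1.51% the second. The windows below run from 116 bases before the RefSeq start to 4 bases from it and are shown since they hold the motifs of the vesicular transporter and of the enzymes of dopamine synthesis. Capitals mark the motif.
Th, chr7:142899992-142900111, minus strand: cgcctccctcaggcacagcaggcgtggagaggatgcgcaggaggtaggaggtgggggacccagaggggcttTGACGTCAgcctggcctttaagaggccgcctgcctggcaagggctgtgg
Slc18a2, chr19:59260762-59260881, plus strand: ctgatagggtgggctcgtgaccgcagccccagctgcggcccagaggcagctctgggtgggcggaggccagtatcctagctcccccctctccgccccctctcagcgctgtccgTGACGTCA
Ddc, chr11:11898141-11898260, minus strand: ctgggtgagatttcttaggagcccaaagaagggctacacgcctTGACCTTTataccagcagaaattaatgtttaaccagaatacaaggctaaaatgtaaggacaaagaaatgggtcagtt
In Th the motif began 45 bases before the start, in Slc18a2 4 bases before it, and in Ddc 73 bases before it, where it reads on the reverse strand. The RefSeq start of Th lies 31133 bases inside the longer span that the deposited table gives for this gene, while those of Slc18a2 and of the Ddc promoter shown are the ends of their spans. The other Ddc promoter, not shown, has its start 7736 bases inside the span and held neither motif. A match describes these letters only.

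The level of the 10 genes, as the mean RPKM of the 9 mice, fell from 8.28 for Maoa through 3.86 for Ddc, 1.79 for Slc18a2, 1.24 for Slc6a3, 1.21 for Th, 0.377 for Hdc, 0.167 for Dbh, 0.155 for Tph2, and 0.0223 for Slc6a4 to 0.00522 for Slc6a2. Neighbors in this order overlapped in range in every case. Within single mice, Ddc exceeded Slc18a2, Th exceeded Hdc, and Tph2 exceeded Slc6a4 in 9 of 9 mice, and Maoa exceeded Ddc in 8. Slc6a3 exceeded Th in only 3 mice and Dbh exceeded Tph2 in 4, so these pairs could not be ordered.

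**Figure D1:**
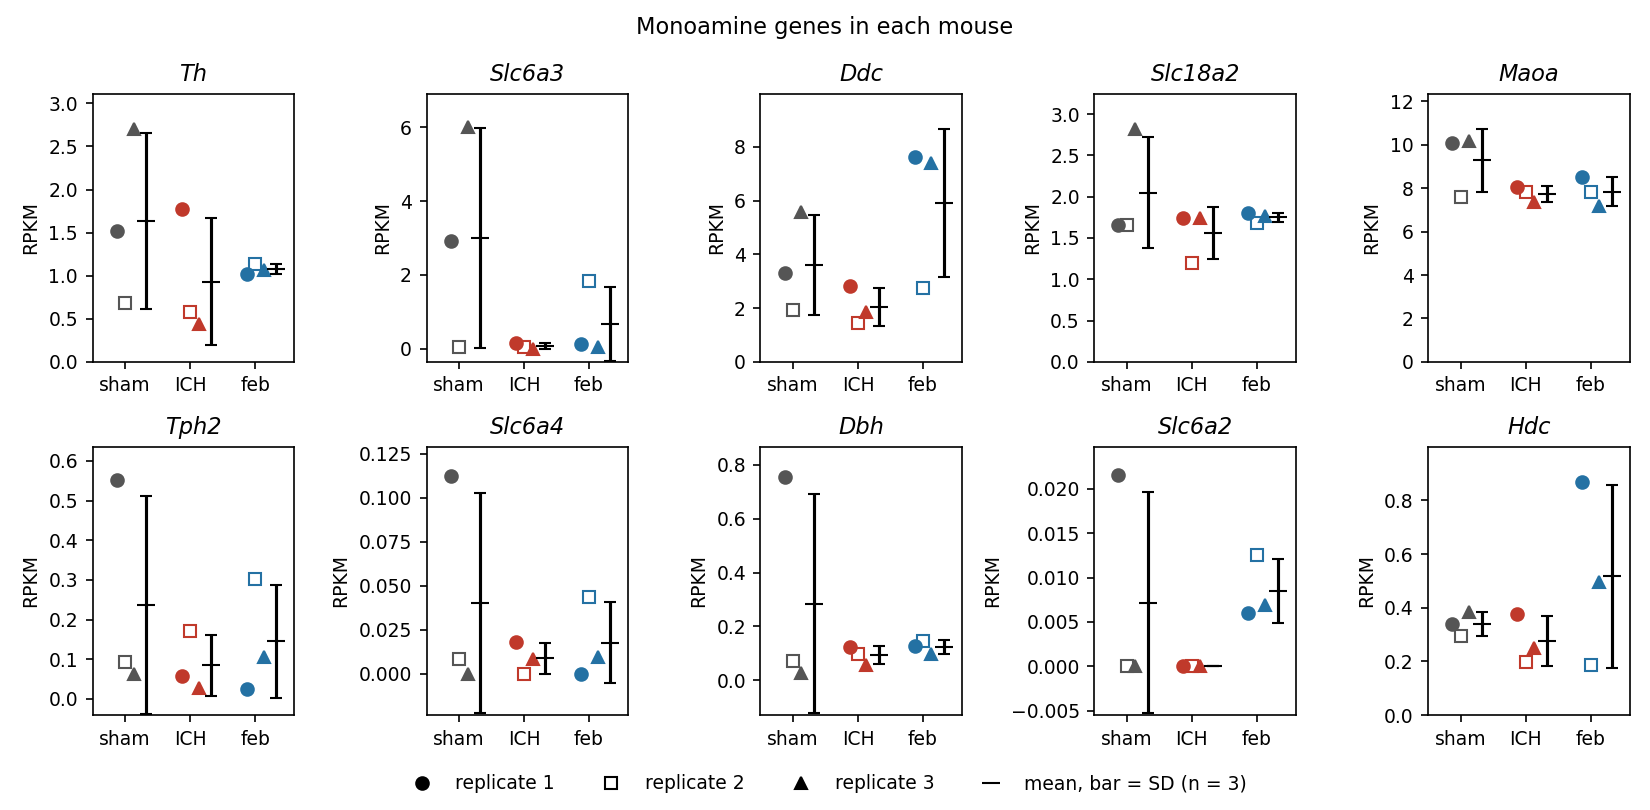
RPKM of each of the 10 genes (vertical axis, linear, different in each panel) in the 3 mice of each group (symbols by replicate number), with the group mean and SD beside them. Slc6a3 was at 2.91 and 6.01 in sham 1 and sham 3 and at 1.82 in feb 2 but at most 0.165 in the other 6 mice, and Ddc was at 7.61 and 7.42 in feb 1 and feb 3.

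The genes differed in how much they varied between mice of the same group. The within-group SD on the log2(RPKM + 0.1) scale was 2.03 for Slc6a3, a value exceeded by 0.200% of the 29025 genes tested, and 0.16 for Maoa, exceeded by 74.1%. It was 0.87 for Dbh, 0.86 for Tph2, 0.77 for Th, 0.69 for Ddc, 0.56 for Hdc, and 0.30 for Slc18a2, against a median of 0.28 over all genes tested. Thus 7 of the 8 tested genes varied more within groups than the median gene, and Maoa less. Against the median of 0.31 over tested genes within the level range of the 8, the number was 6, and Slc18a2 lay just below it.

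The group comparisons gave few calls among the 8 tested genes. A gene was called differentially expressed (DEG) by the study's criteria, a fold change over 2 at an unadjusted p under 0.05, here from limma on log2(RPKM + 0.1), and adjusted p-values over all genes tested are given beside the calls. Voom, a limma fit of the recovered reads, was run as another tool. Between ICH and sham 0 were called by limma or voom and 0 had an unadjusted p under 0.05 in the limma fit, against 2.53% of the 29025 genes called in either direction and 1.07% called lower. All 8 log2 fold changes were negative, with a median of -0.56, where 38.9% of all genes tested were negative and their median was 0.08. Equal medians moved the median of all genes to -0.03, and the 8 genes stayed negative. Without sham 1, however, Dbh was at 0.37 and Tph2 at -0.01. The 8 genes were read in the same mice, so their signs are not separate observations. Between feb and ICH 1 was called, Ddc, against 2.43% of all genes and 1.38% called higher. Here all 8 log2 fold changes were positive, with a median of 0.37, where 47.8% of all genes were positive and their median was -0.01. The sign turned negative for Tph2 without feb 2 (-0.12) and for Maoa without feb 1 (-0.047) or ICH 3 (-0.023). The ICH mice enter both contrasts, so the opposite signs are not separate observations. Between feb and sham 0 were called by limma or voom and 0 had an unadjusted p under 0.05 in the limma fit, against 2.20% of all genes, with 6 negative and 2 positive values.

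None of the 8 genes passed an adjusted p of 0.05 in a contrast, where 0.0241% of all genes passed between ICH and sham, 0.00689% between feb and ICH, and 0.00345% between feb and sham. For 0 of the 8 were the groups free of overlap in any contrast, whereas this held for 19.4%, 17.2%, and 12.7% of all genes tested in the 3 contrasts. Among all genes, 423 were called higher and 312 lower in ICH than in sham, but with equal medians 296 and 443, and 461 higher and 178 lower in feb than in sham, but with equal medians 300 and 252.

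**Figure D2:**
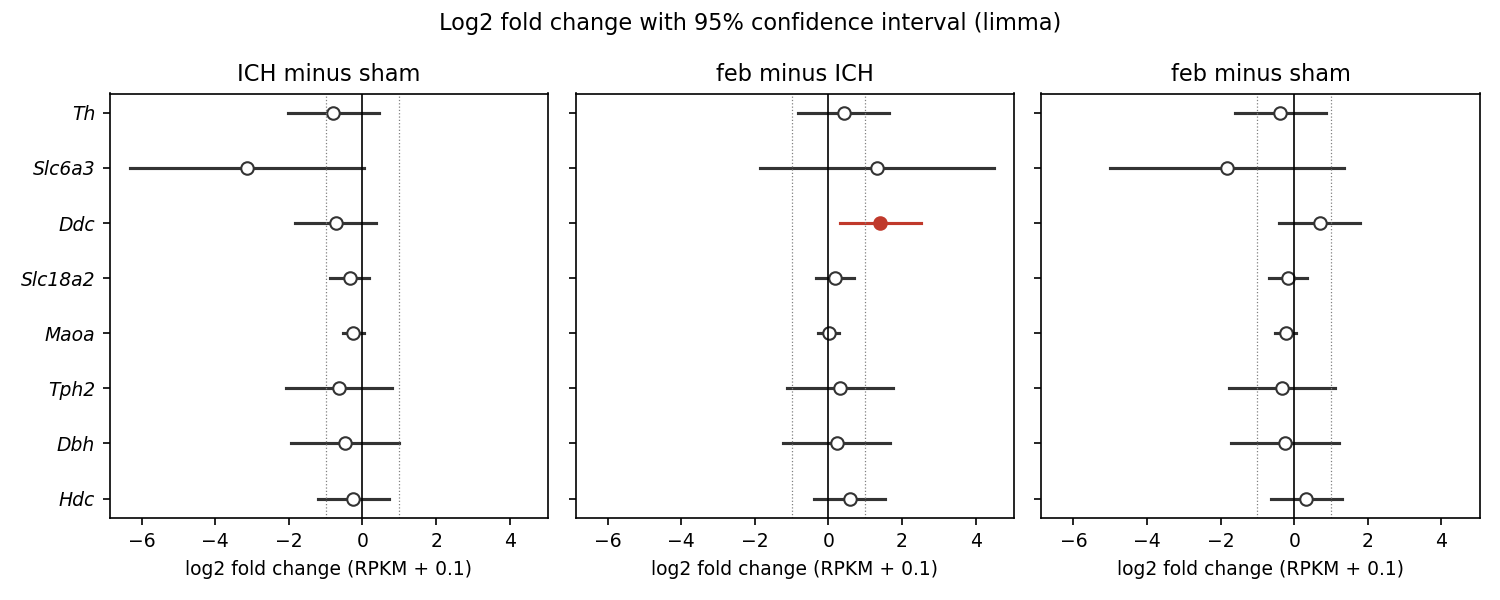
Log2 fold change (horizontal axis, on the log2(RPKM + 0.1) scale) of the 8 tested genes with its 95% interval in each contrast, with dotted lines at a fold change of 2 in either direction. Ddc in feb minus ICH, at 1.41, is the only call (filled symbol), and the interval of Slc6a3 is the widest.

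Th (chromosome 7, 142892752 to 142931128, GRCm38, as are all positions of genes here) was read at an RPKM of 1.52, 0.680, and 2.71 in sham 1, 2, and 3, of 1.78, 0.579, and 0.436 in ICH 1, 2, and 3, and of 1.02, 1.14, and 1.06 in feb 1, 2, and 3. The sham mean was 1.64 ± 1.02, the ICH mean 0.932 ± 0.738, and the feb mean 1.08 ± 0.0592 (SD, n = 3 each). The groups overlapped, and the feb mice lay within the range of both other groups. The log2 fold change of ICH minus sham was -0.79 (SE 0.54, adjusted p = 0.540), and that of feb minus ICH was 0.41 (SE 0.54, adjusted p = 0.800). No contrast met the criteria. Without sham 2 or without ICH 1 ICH minus sham met them, with log2 fold changes of -1.27 and -1.34 and adjusted p-values of 0.243 and 0.497.

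Slc6a3, the dopamine transporter (chromosome 13, 73536747 to 73578672), had an RPKM of 2.91, 0.0554, and 6.01 in sham 1 to 3, 0.165, 0.0550, and 0 in ICH 1 to 3, and 0.120, 1.82, and 0.0502 in feb 1 to 3. These values stand for 297, 5, and 584 reads, for 14, 5, and 0 reads, and for 11, 159, and 4 reads. The 0 of ICH 3 allows an RPKM of up to 0.0331, the value of 3 reads, where counting error alone is considered. All ICH mice were low, but so was sham 2, and each of the other groups held both high and low mice. The log2 fold change of ICH minus sham was -3.15 (SE 1.40, 95% interval -6.33 to 0.04, adjusted p = 0.408, limma), which missed the criteria. A two-sided exact permutation test of the 6 mice gave p = 0.2, where 3 mice against 3 cannot go below 0.1. Without sham 1 the value was -2.60 (adjusted p = 0.732). The call turned on single mice and settings. Slc6a3 met the criteria without sham 2, at -4.74 (adjusted p = 0.0960), without feb 2, which enters only the spread, and with a pseudocount of 1 or equal medians, and its adjusted p ranged from 0.0960 to 0.744 over all alternatives. Feb minus ICH was 1.32 (SE 1.40, adjusted p = 0.746) and feb minus sham -1.83 (SE 1.40, adjusted p = 0.719), and the latter met the criteria only without sham 2, at -3.43. Without sham 1, feb minus sham was -1.29.

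The relation of Th to Slc6a3 split the mice across groups. The ratio of the RPKM of Th to that of Slc6a3 was 0.522 in sham 1, 0.451 in sham 3, and 0.625 in feb 2, and it was 12.3 in sham 2, 10.8 in ICH 1, 10.5 in ICH 2, 8.51 in feb 1, and 21.2 in feb 3. It has no value in ICH 3, where Slc6a3 was 0. The mice thus fell into 3 in which Slc6a3 exceeded Th and 6 in which it was far below. In ICH 1, Th at 1.78 was the second highest of all mice while Slc6a3 was at 0.165. In that mouse the 6 olfactory bulb markers summed to an RPKM of 22.8, against 4.01 to 14.6 in the others. Most of this was Trh, at 14.0 RPKM, which was also at 12.8 and 11.4 in feb 1 and feb 3. Without Trh the other 5 markers summed to 8.71 in ICH 1 and to between 1.53 and 3.14 in the other mice, and of these Cdhr1 was at 3.08 and Doc2g at 3.13 in ICH 1. Olfactory bulb and hypothalamus also hold Th-expressing neurons, and the part of either in the Th values was not tested.

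**Figure D3:**
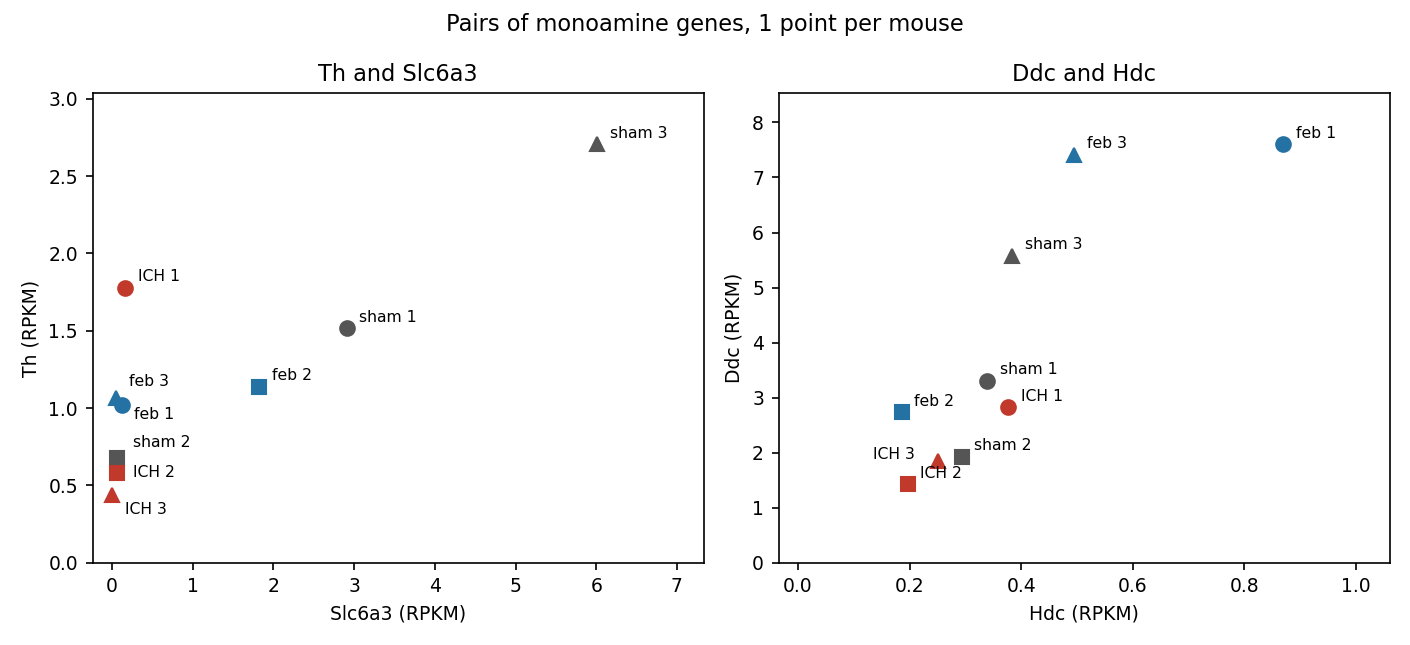
RPKM of Th against Slc6a3 (left) and of Ddc against Hdc (right), linear axes, with 1 point per mouse, colored by group. Sham 3, sham 1, and feb 2 stand to the right of the other 6 mice in the left panel, where Slc6a3 is at most 0.165, and feb 1 and feb 3 have the highest values of both genes in the right panel.

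The 12 other dopamine neuron markers were compared beside these. All 12 were tested, and 3 were called lower in the ICH than in the sham group and 0 higher by limma, with 4 at an unadjusted p under 0.05. Those called were Chrna6, a nicotinic receptor subunit, at -2.07 on the log2 scale (adjusted p = 0.364), Ret, the receptor tyrosine kinase for glial cell line-derived neurotrophic factors, at -1.30 (adjusted p = 0.347), and Aldh1a1, an aldehyde dehydrogenase, at -1.20 (adjusted p = 0.345). Their sham and ICH groups did not overlap. Chrna6, for instance, was at 1.002, 0.132, and 1.31 RPKM in sham 1 to 3 and at 0.0703, 0.0393, and 0.105 in ICH 1 to 3. The calls were lost without sham 1 for Chrna6 (-1.75) and Aldh1a1 (-0.99), without sham 3 for Chrna6 (-1.58), and without ICH 2 for Chrna6 (-1.93), Ret (-0.89), and Aldh1a1 (-0.96). With a pseudocount of 1 those of Chrna6 (-0.70) and Ret (-0.93) were lost. In the feb minus ICH and feb minus sham contrasts 0 of the 12 had an unadjusted p under 0.05, and voom on the recovered reads called 0. Sham 3, sham 1, and feb 2, the mice highest in Slc6a3, were also the highest 3 mice for Chrna6, Ret, Aldh1a1, and Cplx1 of the 12 markers and for Pitx3, En1, En2, and Gata3 of 19 transcription factors of monoamine neurons, and for 5.01% of all other tested genes. In bulk tissue, fewer cells of a type and less RNA per cell cannot be told apart. Thalamic Tcf7l2 was called lower in the ICH than in the sham group as well (-1.61, adjusted p = 0.382, lost without any of sham 1, sham 3, ICH 1, or ICH 2, at -1.55 to -1.14, and with the replicate block), and cortical Tbr1, Emx1, Neurod6, and Slc17a7 were called higher. Voom called 3 of the 6 thalamus markers between ICH and sham. Their median log2 fold change by limma was -1.02, against -0.73 for the 12 dopamine neuron markers. The part of these regional differences in the Slc6a3 values was not tested.

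Of the transcription factors, 14 of 19 were tested. En1, a homeodomain factor of midbrain dopamine neurons, was called lower in the ICH than in the sham group (-2.63 on the log2 scale, adjusted p = 0.383), with 2.26, 0.0729, and 1.02 RPKM in sham 1 to 3, at most 0.0437 in ICH 1 to 3, and 1.07 in feb 2. Its call was lost without any of sham 1, sham 3, or the 3 ICH mice, at -2.74 to -1.83, as well as by voom (-4.33, adjusted p = 0.376), with a pseudocount of 1 (-0.90), among genes with an RPKM of at least 1, and with the replicate block. Nr4a2, an orphan nuclear receptor needed by dopamine neurons that is also an immediate early gene in other neurons, went the other way. It was at 3.65, 1.40, and 3.15 RPKM in sham 1 to 3, 5.20, 9.80, and 4.31 in ICH 1 to 3, and 2.93, 2.12, and 1.997 in feb 1 to 3. It was called higher in ICH than in sham (1.22, adjusted p = 0.347) and lower in feb than in ICH (-1.35, adjusted p = 0.313). The ICH mice share no range with the sham or the feb mice for this gene, and both contrasts use the same ICH mice. The first call was lost without sham 2 (0.81) or ICH 2 (0.87) and with a pseudocount of 1 (0.98). Lmx1b, with a log2 fold change of -1.79 (adjusted p = 0.416) from sham to ICH, was not called.

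Ddc (chromosome 11, 11814101 to 11898144) was the gene called between feb and ICH. Its RPKM was 3.31, 1.93, and 5.58 in sham 1 to 3, 2.83, 1.43, and 1.85 in ICH 1 to 3, and 7.61, 2.74, and 7.42 in feb 1 to 3. Feb 1 and feb 3 were the highest of all 9 mice, whereas feb 2 lay just below ICH 1, so that the groups overlapped. The feb mean was 5.92 ± 2.76, the ICH mean 2.04 ± 0.717, and the sham mean 3.61 ± 1.84 (SD, n = 3 each). The log2 fold change of feb minus ICH was 1.41 (SE 0.48), a 2.66-fold difference with a 95% interval of 1.24 to 5.70, at an adjusted p of 0.368 (limma). The exact permutation test gave p = 0.2. The call was lost without ICH 2, feb 1, or feb 3, where the log2 fold change was 1.20, 1.17, and 1.18, and the adjusted p ranged from 0.229 to 0.684 over all alternatives. Feb minus sham was 0.69 (SE 0.48, adjusted p = 0.692), and it met the criteria only without feb 2 (1.16).

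Ddc did not follow Th. The ratio of their RPKM was 7.44 in feb 1 and 6.97 in feb 3 and between 1.59 and 4.24 in the other 7 mice. Relative to Slc18a2 it was 4.23 and 4.20 in feb 1 and feb 3 and between 1.06 and 1.998 elsewhere. Both ratios set the same 2 mice apart from feb 2 of their own group. In feb 1 and feb 3 the hypothalamic markers summed to an RPKM of 228 and 172, against 18.8 in feb 2. They summed to 182 in ICH 1, where Ddc was at 2.83, and to 120 in sham 3, where Ddc was at 5.58. Of the 10 hypothalamic markers, Agrp, a peptide of arcuate neurons, was called higher in feb than in ICH (2.32 on the log2 scale, adjusted p = 0.219), at 18.0, 3.95, and 12.2 RPKM in feb 1 to 3 and between 1.501 and 2.258 in ICH 1 to 3. It was also called higher in feb than in sham (1.57, adjusted p = 0.565), and between ICH and sham 0 of the 10 were called by limma or voom or had an unadjusted p under 0.05. The part of hypothalamic tissue in the Ddc values was not tested.

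Slc18a2, the vesicular monoamine transporter (chromosome 19, 59260878 to 59296012), was steadier. It had an RPKM of 1.66, 1.66, and 2.83 in sham 1 to 3, 1.74, 1.20, and 1.74 in ICH 1 to 3, and 1.80, 1.69, and 1.77 in feb 1 to 3. Sham 3 was high and ICH 2 low, and the remaining 7 mice lay between 1.66 and 1.80. Its log2 fold change was -0.35 for ICH minus sham and 0.18 for feb minus ICH, with an SE of 0.23 for both. Its exons share 111 bases with those of the antisense gene Gm29261, and whether the counting used strand is not given in the sources used here, so reads in this stretch cannot be assigned. Gm29261 itself was at 0.282 to 2.26 RPKM.

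The serotonin and noradrenaline genes were high in sham 1. Tph2 (chromosome 10, 115078641 to 115185022) had an RPKM of 0.553, 0.0930, and 0.0618 in sham 1 to 3, 0.0567, 0.172, and 0.0265 in ICH 1 to 3, and 0.0262, 0.303, and 0.105 in feb 1 to 3, which stand for between 2 and 47 reads. Slc6a4 (chromosome 11, 76998603 to 77032340) had 15, 1, and 0 reads in sham 1 to 3, 2, 0, and 1 in ICH 1 to 3, and 0, 5, and 1 in feb 1 to 3. Sham 1 was the highest mouse for both genes. Fev, a transcription factor of serotonin neurons, was at most at 0.147 RPKM, in feb 2, and at 0 in 3 mice.

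Dbh (chromosome 2, 27165233 to 27183200) had an RPKM of 0.755, 0.0711, and 0.0264 in sham 1 to 3, 0.121, 0.0989, and 0.0567 in ICH 1 to 3, and 0.126, 0.147, and 0.0966 in feb 1 to 3. Slc6a2 (chromosome 8, 92960079 to 93001667) had 4 reads in sham 1 and 0 in the other sham mice, 0 in all ICH mice, and 1, 2, and 1 in feb 1 to 3. In these libraries 3 reads of Slc6a2 correspond to an RPKM between 0.0161 and 0.0207, so a difference was not detectable.

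For all 4 genes sham 1 had the highest value and feb 2 the next, but the place of feb 2 rests on few reads. Feb 2 had 22 reads of Tph2 against 13 in ICH 2, 5 of Slc6a4 against 2 in ICH 1, 10 of Dbh against 9 in feb 1, and 2 of Slc6a2 against 4 in sham 1 and 1 in feb 1 and feb 3. The part of counting error in the place of feb 2 was not tested. Gata3, alone of the 11 other serotonin neuron markers, had the same order, at 1.68 RPKM in sham 1 and 1.61 in feb 2. It was at 0.563 in sham 3 and at most 0.103 in the others. Of the 9 hindbrain markers, Slc6a5, a glycine transporter of hindbrain and spinal cord, was at 9.10 RPKM in sham 1, 0.506 in feb 2, and at most 0.0602 in the others. The other 8, all Hox genes, summed to 14.2 in sham 1, to 0.0564 in feb 2, and to between 0.0407 and 0.101 in the remaining mice, so that of the 9 markers Slc6a5 alone set feb 2 apart. The part of hindbrain tissue in these values was not tested. The log2 fold change of ICH minus sham was -0.64 (SE 0.63) for Tph2 and -0.47 (SE 0.64) for Dbh, and without sham 1 it was -0.01 for Tph2 and 0.37 for Dbh, so the direction of Dbh reversed. Feb minus sham likewise changed sign without sham 1, from -0.32 to 0.31 for Tph2 and from -0.25 to 0.60 for Dbh. None of these values was called.

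Of the 11 other serotonin neuron markers, 10 were tested. Limma called 0 in each contrast, with 1, 1, and 0 at an unadjusted p under 0.05 for ICH minus sham, feb minus ICH, and feb minus sham, and voom also called 0. Of the 10 noradrenaline neuron markers, 9 were tested, and Npy, a neuropeptide also made by many cortical, striatal, and hypothalamic neurons, was called higher in feb than in sham (1.05 on the log2 scale, adjusted p = 0.580), at 105, 34.9, and 90.8 RPKM in feb 1 to 3 and 33.6, 47.5, and 23.4 in sham 1 to 3. The call was lost without any of sham 1, sham 3, ICH 3, feb 1, or feb 3, at 0.75 to 1.05, and also with equal medians (0.94), with no trend, with the replicate block, and with only 2 groups in the fit. Of the 9 genes 1, 3, and 1 had an unadjusted p under 0.05 for ICH minus sham, feb minus ICH, and feb minus sham, and voom called 1, 0, and 1. Again feb 1 and feb 3 were high and feb 2 lay among the sham mice.

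**Figure D4:**
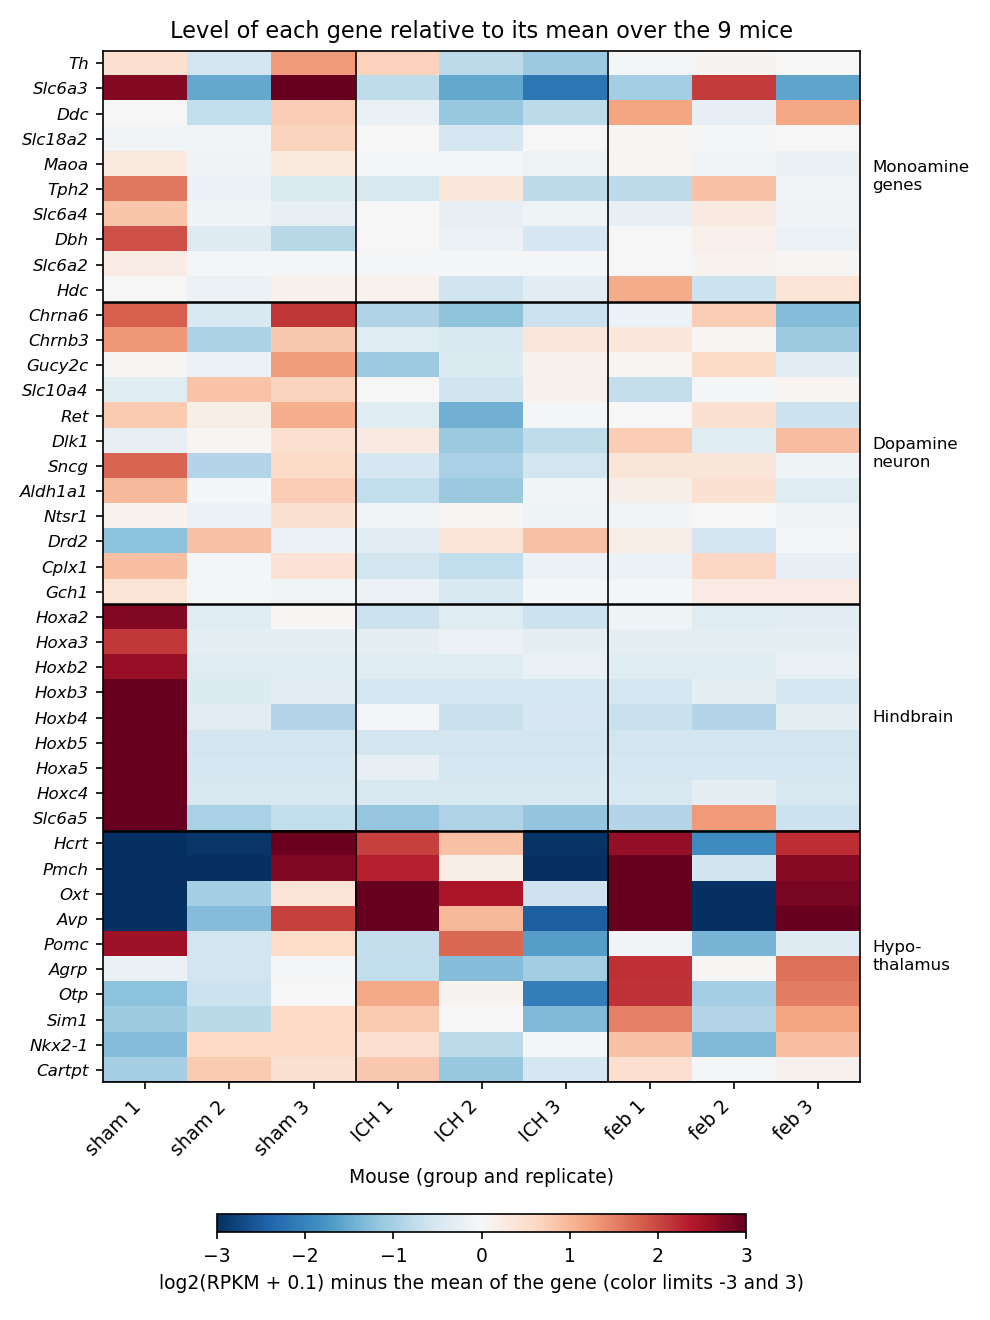
Level of each gene in each mouse on the log2(RPKM + 0.1) scale minus the mean of that gene over the 9 mice (color, limits -3 and 3), for the 10 genes and for dopamine neuron, hindbrain, and hypothalamus markers. The hindbrain markers, summing to 23.3 RPKM in sham 1 and at most 0.562 elsewhere, were high in the mouse that was highest in Tph2, Slc6a4, and Dbh.

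Hdc (chromosome 2, 126593667 to 126619299) had an RPKM of 0.339, 0.293, and 0.384 in sham 1 to 3, 0.377, 0.196, and 0.251 in ICH 1 to 3, and 0.869, 0.186, and 0.495 in feb 1 to 3. Feb 1 and feb 3 were the highest of the 9 mice and feb 2 the lowest. Feb minus ICH gave a log2 fold change of 0.58 (SE 0.42, adjusted p = 0.628), and without feb 2 it was 1.05 and met the criteria. Hdc is also made by mast cells. Of 7 mast cell markers in the file, Cpa3, Cma1, Mcpt4, Tpsb2, Tpsab1, and Ms4a2 were at or near 0 in all mice, with at most 0.0658 RPKM, and the seventh, Kit, is also expressed by neurons. The 9 other histamine neuron markers were all tested. Limma called 0 of them, and 0 had an unadjusted p under 0.05 in any contrast, whereas voom called 1 between ICH and sham. Feb 1, feb 3, and sham 3 were the highest 3 mice for Hdc, Ddc, and Slc18a2, and also for Hcrt, Pmch, and Nkx2-1 of the 10 hypothalamic markers and for 1.15% of all other tested genes. For Hdc and Slc18a2 the third mouse and the next were close, at 0.384 and 0.377 RPKM for Hdc and at 1.77 and 1.74 for Slc18a2. Hcrt, the orexin peptide of the lateral hypothalamus, was at 7.11 and 5.21 RPKM in feb 1 and feb 3 and at 0.212 in feb 2.

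Maoa (chromosome X, 16619698 to 16687818) varied least. It had an RPKM of 10.1, 7.57, and 10.2 in sham 1 to 3, 8.05, 7.82, and 7.34 in ICH 1 to 3, and 8.49, 7.81, and 7.16 in feb 1 to 3. Sham 1 and sham 3 were the highest mice, and sham 2 lay among the other groups. ICH minus sham gave a log2 fold change of -0.25 (SE 0.13, 95% interval -0.54 to 0.04, adjusted p = 0.442) and feb minus ICH gave 0.01 (95% interval -0.28 to 0.30, adjusted p = 0.982). Without sham 1, ICH minus sham was -0.18. Maob, the other monoamine oxidase, was at 5.72 to 12.6 RPKM over the 9 mice and was not called.

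Of the 10 breakdown genes beside Maoa, all tested, Aldh1a1 was called lower in ICH than in sham, as given above, and Sult1a1, a sulfotransferase, was called higher in feb than in ICH (1.08, adjusted p = 0.406) and than in sham (1.51, adjusted p = 0.565). Sult1a1 was at 17.8 and 21.8 RPKM in feb 1 and feb 3, the mice that were high in Ddc, at 6.28 in feb 2, and at 4.41 to 8.65 in the other mice. Its call against ICH was lost without any of ICH 2, ICH 3, feb 1, or feb 3, at 0.74 to 1.04, and with a pseudocount of 1 (0.99) or only 2 groups in the fit. The 8 genes for tetrahydrobiopterin and pyridoxal cofactors, Gch1 among them at 0.164 to 0.378 RPKM, held 0 calls by limma or voom in the 3 contrasts, and 1 had an unadjusted p under 0.05, in feb minus sham. For other synthesis and transport steps, 0 of 5 tested genes were called by either or had such a p. Of 16 tested monoamine receptors limma called 0, with 1 at an unadjusted p under 0.05 in ICH minus sham and 1 in feb minus sham, and voom called 1 in feb minus sham.

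Other markers moved with the groups as well. All 8 choroid plexus markers (Aqp1, Clic6, Folr1, Kcne2, Kl, Slc4a5, Sostdc1, and Ttr) were called lower in the feb than in the ICH group, and all but Clic6 lower than in the sham group, with Ttr at 24.2, 50.4, and 78.1 RPKM in feb 1 to 3 and at 350 to 1005 in the other mice. Clic6 was no longer called without feb 2 (-0.97), and with a pseudocount of 1 the calls of Aqp1 in both contrasts and of Kl and Slc4a5 against sham were lost. Of 5 red blood cell markers, 4 were called lower in feb than in ICH (Hba-a1, Hba-a2, Hbb-bs, and Hbb-bt) and 3 of these, without Hbb-bs, lower than in sham. The fifth, Alas2, was not called and went the other way, with a mean of 5.48 RPKM in feb, 3.85 in ICH, and 3.16 in sham. For the 4 called genes ICH 1 alone was high, with Hba-a1 at 34.0 RPKM against 6.74 and 6.44 in ICH 2 and ICH 3. Without ICH 1 all 4 calls against ICH were lost, at -0.89 to -0.61 on the log2 scale. Those of Hba-a1, Hba-a2, and Hbb-bt were also lost without feb 1 or feb 3. The call of Hbb-bt against ICH was further lost without any of the sham mice, sham 1 among them (-1.68). It was lost as well with a pseudocount of 1 or the replicate block, and, like that of Hba-a1, with only 2 groups in the fit. Against sham, the call of Hba-a1 was lost without any of the sham or feb mice, sham 1 among them (-1.35), and by voom, and those of Hba-a2 and Hbb-bt were lost without sham 2, feb 1, or feb 3. Of 7 meningeal markers Col1a1 was called lower in feb than in sham (-1.10), and without sham 1, where it was at 4.94 RPKM, its value was -0.69 and not called. It was also lost without sham 3, feb 1, or feb 3. Of the cortical markers, Tbr1 and Emx1 were called lower in feb than in ICH and Neurod6 higher than in sham. Emx1 lost its call against ICH without any of sham 2, the 3 ICH mice, feb 1, or feb 3, at -1.13 to -0.78, and between ICH and sham Emx1 lost it without sham 3 (0.97) and Neurod6 without sham 2, sham 3, or ICH 2, at 1.53 to 1.79. The 9 hindbrain markers were below the level for testing. Of the tested striatal, cerebellar, olfactory bulb, pituitary, pineal, and mast cell markers limma and voom called 0 in any contrast, and 1 cerebellar marker had an unadjusted p under 0.05 in ICH minus sham and in feb minus ICH. The part of these differences in the values of the 10 genes was not tested.

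The genes whose level followed each gene most closely over the 9 mice were listed by Pearson r among 18550 or 18551 other genes that reached 1 RPKM in 3 or more mice, as a description. For Th these were 4930444A19Rik (r = 0.938), Gm28050 (0.921), Wwp2 (0.918), 1700008J07Rik (0.900), and Tonsl (0.892). For Tph2 they were Gm5812 (0.959), Atp6v1g2 (0.932), Hist1h2al (0.919), Incenp (0.901), and Cercam (0.897). For Dbh they included Ogfod3 (0.929), Fbxo2 (0.927), Pus1 (0.927), and Gm24727 (0.900). For Hdc they were Hist3h2ba (0.960), Pcm1 (0.944), Cep85l (0.943), Slc36a4 (0.938), and Senp5 (0.936). An r over 0.9 was found for 4 genes with Th and with Tph2, for 5 with Dbh, and for 31 with Hdc. Each point is 1 library, and the genes listed are among the highest of all those compared over only 9 mice. The part of library depth or of the mix of brain regions in these r was not tested.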

How the data were processed

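Total RNA of mouse brain was sequenced after rRNA depletion, from 9 mice, 3 per group, grouped by the sample labels. The authors trimmed reads (Trimmomatic 0.36), merged reads sharing a UMI, aligned them to GRCm38, counted them on exons (featureCounts, Subread 1.5.1), and tested with edgeR 3.12.1. They deposited RPKM values, 1 column per mouse, which depth and exon length already scale. The annotation release and the use of strand are not given in the sources used here. Whole reads were recovered from RPKM and exon length (100% of values whole within 0.01), and their totals ranged from 23065757 to 29538009.

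From the deposited RPKM values, log2(RPKM + 0.1) was tested with limma 3.58.1 (R 4.3.3, eBayes with trend) for the 29025 genes that reached 0.1 RPKM in 3 or more mice, with 1 fit of all mice and no block. This scale understates changes of low genes. DEGs had an unadjusted p under 0.05 and a fold change over 2. The Benjamini-Hochberg adjustment covered all genes tested. Single genes were also tested by an exact permutation test. The labels do not say which mice shared a batch, and the limma p-values set a group difference against the spread between these samples within groups. Intervals and floors (3 reads) cover counting error only where they come from reads. Tables and plots used Python 3.11.15, numpy 2.4.6, pandas 2.3.3, scipy 1.17.1, and matplotlib 3.10.9. The test was tried on simulated data first.

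The 10 genes and the 22 comparison lists were chosen with earlier results of these data known. Named beside the 10 are genes called in at least 1 contrast, Maob, Gch1, Nr4a2, Lmx1b, and Fev, and genes most alike by r; some genes that this rule names are not reported here. Other genes, such as Cdhr1, Doc2g, Slc6a5, Pitx3, and Hcrt, were singled out after their values were seen. The alternatives were quantile normalization, equal medians, voom on recovered reads, pseudocounts of 0.01 and 1, a filter at 1 RPKM or none, eBayes with no trend, a replicate block, only 2 groups in the fit, and each mouse left out.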

Additional observations from a re-analysis of the deposited data

How the results depend on the processing

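The number of the 8 tested genes called between ICH and sham, 0, was 1 with a pseudocount of 1 or equal medians (Slc6a3 in both, at -1.52 and -3.25 on the log2 scale), and ranged from 0 to 2 when 1 mouse was left out. It was 2 without sham 2 (Slc6a3 and Th) and 1 without ICH 1 (Th) or without feb 2 (Slc6a3). Between feb and ICH it was 1 in every other setting and ranged from 0 to 2 when 1 mouse was left out, with 0 without ICH 2, feb 1, or feb 3 and 2 without feb 2 (Ddc and Hdc). Between feb and sham it ranged from 0 to 1, with 1 without sham 2 (Slc6a3, -3.43) or without feb 2 (Ddc, 1.16). The cause was not tested.

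Directions reversed for Dbh in feb minus sham, from -0.25 to 0.0055 with a pseudocount of 0.01 and to 0.0093 with voom. When 1 mouse was left out, log2 fold changes ranged for ICH minus sham from -1.01 to 0.37 for Dbh, for feb minus ICH from -0.12 to 0.71 for Tph2 and from -0.047 to 0.075 for Maoa, and for feb minus sham from -0.86 to 0.064 for Th, from -0.29 to 0.074 for Slc18a2, from -0.76 to 0.31 for Tph2, from -0.78 to 0.60 for Dbh, and from -0.084 to 0.80 for Hdc. The other 423 of the members' values kept their direction and side of the threshold, while 9 passed it, 3 lost it, and 12 reversed.

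Over all genes, the DEGs of the 3 contrasts, 735, 706, and 639, were 158, 128, and 91 with a pseudocount of 1 and 346, 287, and 263 among genes with an RPKM of at least 1. Without sham 2 there were 1299 for ICH minus sham and 1150 for feb minus sham, and without feb 2 there were 1030 for feb minus sham. Of the other named genes' values, 719 were on the same side and 114 lost their call.

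Same-numbered mice of different groups did not deviate together (r from -0.127 to 0.0194 over genes), so the numbers were not taken as pairs. With the replicate block 1 gene was still called between feb and ICH, Ddc at 1.41 (limma, adjusted p = 0.316), and 0 in the other contrasts.

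Depth limits Slc6a4 and Slc6a2, which had at most 15 and 4 reads. Dbh, Tph2, and Hdc could not be fitted at an RPKM of at least 1 in 3 mice. The region sampled and the time after injection are unknown here, and 3 mice per group leave wide intervals.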
